A study of Mus musculus with 8 samples.

Results

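Carboxylesterases are serine hydrolases that cleave ester and amide bonds in triacylglycerols, cholesteryl esters, drugs and other small molecules. In hepatocytes most of them sit in the lumen of the endoplasmic reticulum, where a short signal at the end of the protein holds them, and those without the signal can leave the cell. The mouse genome carries many copies of these genes in tandem, including *Ces1d*, a triacylglycerol hydrolase that mobilises stored lipid for very low density lipoprotein, and *Ces1c*, the carboxylesterase of mouse plasma. None of 10 carboxylesterase transcripts passed the test for a difference between livers labelled *Srsf10-kd* and *Ctrl*. Several of them varied more between livers of the same label than most genes of like level.

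The 10 genes are *Ces1b*, *Ces1c*, *Ces1d*, *Ces1e*, *Ces1f*, *Ces1g*, *Ces2a*, *Ces2c*, *Ces3a* and *Ces3b*. They were taken by name, without use of their levels, as the rows whose Ensembl identifier belongs to these symbols in the GENCODE M21 annotation of GRCm38. They are 10 of the 45706 identifiers of the count table and 10 of its 20 genes with a carboxylesterase symbol, and all 10 passed the filter on low counts.

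The samples are livers of 8 male mice, a strain that the labels spell C56B6/J, with 4 livers labelled *Srsf10-kd* and 4 labelled *Ctrl*, whose genotype the labels give as Srsf10KD and WT. At 6 weeks of age the mice had received an adeno-associated virus with either a short hairpin RNA in a microRNA backbone against *Srsf10*, a splicing and polyadenylation factor, or a control, and 4 weeks later all of them received a high-fat diet (60% of calories) for 12 weeks. The vector uses the chicken β-actin promoter, which is not restricted to hepatocytes, and also carries GFP. Each liver gave 50456404 to 59697241 counted reads, and levels are given as CPM, the reads of a gene relative to all counted reads of its library, after TMM scaling of the libraries. The CPM of *Srsf10* itself was 31.6, 33.7, 35.3 and 30.9 in *Ctrl* 1 to 4 and 34.3, 34.0, 41.0 and 36.5 in *Srsf10-kd* 1 to 4, so the transcript, in these libraries, was not lower in the livers labelled as knock-down (log2 fold change 0.15 ± 0.10 SE, edgeR adjusted p = 0.378). The study's other assays of SRSF10, protein included, were not analysed here, and fold changes below are differences between labelled groups. The summed CPM of 8 hepatocyte markers was 88883 to 114140 in *Ctrl* and 105897 to 122423 in *Srsf10-kd*. That of 5 cholangiocyte markers was 31.4 to 39.1 and 46.5 to 68.6 without overlap, and its part in the results was not tested. The sums of Kupffer cell and macrophage, stellate cell, endothelial cell, and T and B cell markers overlapped between the groups.

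All 10 genes lie on chromosome 8 of GRCm38 in 2 separate clusters. The *Ces1* genes are on the minus strand, from *Ces1b* (ENSMUSG00000078964, chr8:93056728-93080017), *Ces1c* (ENSMUSG00000057400, chr8:93099015-93131283) and *Ces1d* (ENSMUSG00000056973, chr8:93166068-93197838) to *Ces1e* (ENSMUSG00000061959, chr8:93201218-93229619), *Ces1f* (ENSMUSG00000031725, chr8:93256236-93279747) and *Ces1g* (ENSMUSG00000057074, chr8:93302369-93337308). On the plus strand, the other cluster holds *Ces2a* (ENSMUSG00000055730, chr8:104734003-104741634), *Ces2c* (ENSMUSG00000061825, chr8:104847068-104854483), *Ces3a* (ENSMUSG00000069922, chr8:105048601-105058413) and *Ces3b* (ENSMUSG00000062181, chr8:105083753-105093929).

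The family's catalytic motif, known as GXSXG, surrounds the serine that attacks the ester bond, and a script found its codons in all 10 coding sequences. The 30 coding bases around it are shown because they carry the activity that unites the family. Sequences are from GENCODE M21 transcripts, read along the coding strand, each within 1 exon, with the 5 codons of the motif in capitals.
*Ces1b*, chr8:93071879-93071908: gtctttGGGTCATCAGCAGGAggtgtcagt
*Ces1c*, chr8:93123112-93123141: atctttGGAGAGTCATCAGGGggtatcagt
*Ces1d*, chr8:93187755-93187784: atctttGGAGAGTCAGCAGGAggtttcagt
*Ces1e*, chr8:93217511-93217540: atctttGGAGAGTCAGCAGGAggtgaaagt
*Ces1f*, chr8:93269986-93270015: atctttGGAGAGTCAGCAGGAggttacagt
*Ces1g*, chr8:93328390-93328419: atcttcGGCGAGTCAGCAGGAggtgaaagt
*Ces2a*, chr8:104737404-104737433: atatttGGAGTCTCAGCAGGAggtacaagt
*Ces2c*, chr8:104850762-104850791: atttttGGCGAGTCTGCAGGTggcacaagt
*Ces3a*, chr8:105051580-105051609: atcttcGGTAACTCTGCTGGAggcattatt
*Ces3b*, chr8:105086670-105086699: atcttcGGTAACTCTGCTGGAggcatgatt
The capital letters are identical in *Ces1d*, *Ces1e* and *Ces1f*, and they are identical in *Ces3a* and *Ces3b*. The motif's serine is codon 221 in *Ces1b*, *Ces1c*, *Ces1d*, *Ces1f* and *Ces1g*, codon 222 in *Ces1e*, codon 227 in *Ces2a*, codon 230 in *Ces2c* and codon 232 in *Ces3a* and *Ces3b*.

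The last codons decide whether the protein carries a retention signal of the HXEL type, and they divide the 10 genes. The last 4 codons before the stop codon are in capitals in the following 27 bases.
*Ces1b*, chr8:93056887-93056913: cctactgagcacAGAGAACACAAAtga
*Ces1c*, chr8:93099165-93099191: cctactgaacacACAGAACACAAAtga
*Ces1d*, chr8:93166255-93166281: tcccacagggaaCATGTTGAGCTCtga
*Ces1e*, chr8:93201404-93201430: ctgccgacagaaCACACTGAGCTGtga
*Ces1f*, chr8:93256429-93256455: ccccagccatacCACAATGAGCTGtga
*Ces1g*, chr8:93302905-93302931: tcccatagggaaCATGTTGAACTGtga
*Ces2a*, chr8:104741390-104741416: tctcaggacaagCATGCAGAGCTGtag
*Ces2c*, chr8:104854238-104854264: tctcaggacaagCACAGGGAGCTTtag
*Ces3a*, chr8:105058077-105058103: agcaggaaagttCCAGAGGAGCTCtga
*Ces3b*, chr8:105093236-105093262: agcaggaaagttCCAGAGGAGCTCtga
*Ces1d*, *Ces1e*, *Ces1f*, *Ces1g*, *Ces2a* and *Ces2c* encode an HXEL signal. *Ces1b*, *Ces1c*, *Ces3a* and *Ces3b* do not, and the last codons of *Ces3a* and *Ces3b* were identical. Only the HXEL pattern was searched, and whether a protein without it is retained or leaves the cell was not tested.

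Because the genes are copies of each other, a read from a stretch that copies share fits more than 1 gene. The paper counted reads per gene with STAR from libraries read at both ends, so the other end of such a read can lie outside the stretch. Whether such reads were left out or counted for a copy was not tested. Over the coding sequence *Ces3a* and *Ces3b* were 95.3% identical, *Ces1b* and *Ces1c* 90.9%, *Ces2a* and *Ces2c* 82.6%, and *Ces1d* and *Ces1g* 81.5%. Of all 75-base stretches of the transcripts, the length of 1 read, *Ces3a* and *Ces3b* shared 15.1% and 15.4% with each other. *Ces2c* shared 22.1% with other genes, mostly the pseudogene *Ces2d-ps*, and *Ces2a* shared 11.4% with the gene *Gm7208*. *Ces1b* shared 4.5% with *Ces1c*, and *Ces1c* shared 5.08% with other genes, of which 3.66% with *Ces1b*. *Ces1e* shared 0.96% with *Ces1c*, and *Ces1d*, *Ces1f* and *Ces1g* shared none. The counts of *Ces2c*, *Ces3a*, *Ces3b* and *Ces2a* are to that extent uncertain.

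To compare genes with each other, CPM was divided by the length of the longest coding transcript in kb. On this scale *Ces1c* was the most abundant, at 1237 ± 146 CPM per kb (SD, n = 8 livers), followed by *Ces3a* at 818 ± 108, *Ces1d* at 513 ± 154, *Ces1f* at 281 ± 42.6 and *Ces3b* at 143 ± 52.4. *Ces2a* had 78.3 ± 15.4 CPM per kb, *Ces1e* 75.2 ± 18.4, *Ces1g* 59.9 ± 29.5 and *Ces1b* 38.5 ± 5.21. *Ces2c* was the lowest of the 10, at 6.16 ± 2.34 CPM per kb. The 9 pairs of neighbours in this order were compared within livers with an exact two-sided sign-flip permutation test. In 6 of the pairs all 8 livers had the same order (exact p = 0.00781, the smallest these 8 livers allow, adjusted p = 0.0117). The order of *Ces2a* over *Ces1e* (7 of 8 livers, adjusted p = 0.0781), of *Ces1e* over *Ces1g* (7 of 8, adjusted p = 0.0703) and of *Ces1g* over *Ces1b* (6 of 8, adjusted p = 0.0781) did not pass in the exact test. With the same CPM divided instead by the length that no other gene shares in 75-base stretches, an alternative chosen after seeing the data, the order of the 10 was the same, with *Ces3a* at 1038, *Ces2a* at 95.6 and *Ces2c* at 8.64 CPM per kb. Members without an HXEL signal stood at both ends of the order. *Ces1c* and *Ces3a*, the 2 most abundant, lack it, as does *Ces1b*, which stood next above *Ces2c*.

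The study asks how loss of SRSF10 alters the liver on a high-fat diet, and for this family the labelled groups were compared with edgeR's quasi-likelihood test on the counts of all 15491 genes that passed the filter, with Benjamini-Hochberg adjustment over all of them. Of the 10 members, 0 were called higher or lower at an adjusted p under 0.05, where 0.071% of all genes tested were called. At an unadjusted p under 0.05 it was also 0 of 10, where 21.8% of all genes passed. The groups of 4 livers overlapped for each of the 10, while 14.3% of all genes had groups that did not overlap. DESeq2 and limma-voom called 0 of 10 as well, with 5.75% and 11.7% of all genes called. Fold changes were above zero for 5 members and below zero for 5, with a median log2 fold change of -0.01 beside 0.01 over all genes tested. Adjusted p ran from 0.305 to 0.984, and exact two-sided permutation p over the 70 assignments of livers to groups from 0.229 to 1, where 0.0286 is the smallest possible. In whole liver RNA, fewer cells of a type and less RNA per cell cannot be told apart.

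The lipid hydrolase *Ces1d* had 1047, 1179, 1188 and 421 CPM in *Ctrl* 1 to 4 and 766, 1185, 1428 and 1006 in *Srsf10-kd* 1 to 4. *Ctrl* 4 was the lowest liver by far, and the other 7 were mixed. The means were 959 ± 364 and 1096 ± 280 CPM (SD, n = 4 each), with a log2 fold change of 0.19 ± 0.31 SE (edgeR adjusted p = 0.718) that became -0.06 without *Ctrl* 4. The 95% interval ran from 0.708-fold to 1.85-fold. *Ces1g*, a hydrolase of triacylglycerol and cholesteryl esters, was the most variable member. Its CPM was 155, 175, 112 and 53.5 in *Ctrl* 1 to 4 and 74.2, 261, 210 and 105 in *Srsf10-kd* 1 to 4, a 4.88-fold spread over the 8 livers. *Srsf10-kd* 2 and 3 were the highest, and *Ctrl* 4 and *Srsf10-kd* 1 the lowest. The log2 fold change was 0.39 ± 0.43 SE (edgeR adjusted p = 0.589, 95% interval 0.671-fold to 2.57-fold), fell to 0.06 without *Srsf10-kd* 2, and was -0.25 with limma-voom.

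*Ces1f*, another hydrolase of the endoplasmic reticulum, had 567, 593, 654 and 380 CPM in *Ctrl* 1 to 4 and 502, 523, 594 and 522 in *Srsf10-kd* 1 to 4. *Ctrl* held both its highest and its lowest liver. The log2 fold change was -0.04 ± 0.16 SE (edgeR adjusted p = 0.91), with an interval of 0.756-fold to 1.26-fold. *Ces1e*, also called egasyn, binds β-glucuronidase and keeps it in the endoplasmic reticulum. It had 164, 167, 207 and 92.7 CPM in *Ctrl* and 115, 179, 185 and 136 in *Srsf10-kd*, again with the extremes in *Ctrl* 3 and *Ctrl* 4. Its log2 fold change was -0.03 ± 0.24 SE (edgeR adjusted p = 0.941), and that of its partner *Gusb* was 0.03 ± 0.13 SE (adjusted p = 0.912).

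The 2 *Ces1* members without an HXEL signal varied least among the *Ces1* genes. *Ces1c* had 2188, 2546, 2678 and 1899 CPM in *Ctrl* 1 to 4 and 2081, 2325, 2014 and 2363 in *Srsf10-kd* 1 to 4. The *Srsf10-kd* livers all fell within the range of *Ctrl*, and the highest liver was 1.41-fold above the lowest. Means of 2328 ± 353 and 2196 ± 174 CPM (SD, n = 4 each) gave a log2 fold change of -0.08 ± 0.14 SE (edgeR adjusted p = 0.732) with an interval of 0.757-fold to 1.18-fold. *Ces1b* had 64.4, 89.0, 81.3 and 63.8 CPM in *Ctrl* and 63.0, 82.5, 79.7 and 81.4 in *Srsf10-kd*. In *Srsf10-kd* 1 it was well below the other 3 of that label, and *Ctrl* 1 and 4 were as low. Its log2 fold change was 0.04 ± 0.14 SE (edgeR adjusted p = 0.887, interval 0.823-fold to 1.28-fold).

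*Ces2* enzymes hydrolyse acylglycerols and many ester drugs. *Ces2a* had 156, 163, 185 and 108 CPM in *Ctrl* 1 to 4 and 113, 177, 184 and 142 in *Srsf10-kd* 1 to 4. The order of livers was close to that of *Ces1e*, and the log2 fold change was 0.01 ± 0.20 SE (edgeR adjusted p = 0.984). *Ces2c* had the fold change farthest from zero among the 10. It had 14.8, 19.1, 16.7 and 6.95 CPM in *Ctrl* and 8.87, 12.7, 6.28 and 11.6 in *Srsf10-kd*, so that 3 *Ctrl* livers were above every *Srsf10-kd* liver and *Ctrl* 4 was below all but one. Its means were 14.4 ± 5.26 and 9.87 ± 2.89 CPM (SD, n = 4 each) and its log2 fold change was -0.54 ± 0.31 SE (edgeR adjusted p = 0.305, interval 0.428-fold to 1.1-fold). Without *Ctrl* 4 it was -0.77, and its lowest adjusted p under any alternative was 0.186, with limma-voom.

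*Ces3a* was the second most abundant member, and it had 1993, 1447, 1674 and 1827 CPM in *Ctrl* 1 to 4 and 1594, 1357, 1904 and 1587 in *Srsf10-kd* 1 to 4. Here *Ctrl* 4 was among the higher livers, unlike for the *Ces1* and *Ces2* genes. The log2 fold change was -0.11 ± 0.15 SE (edgeR adjusted p = 0.67, interval 0.738-fold to 1.17-fold). Its close copy *Ces3b* had 443, 200, 389 and 312 CPM in *Ctrl* and 281, 239, 590 and 300 in *Srsf10-kd*. *Srsf10-kd* 3 was the highest and *Ctrl* 2 the lowest liver, and the log2 fold change of 0.07 ± 0.31 SE (edgeR adjusted p = 0.909) became -0.30 without *Srsf10-kd* 3.

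**Figure D1:**
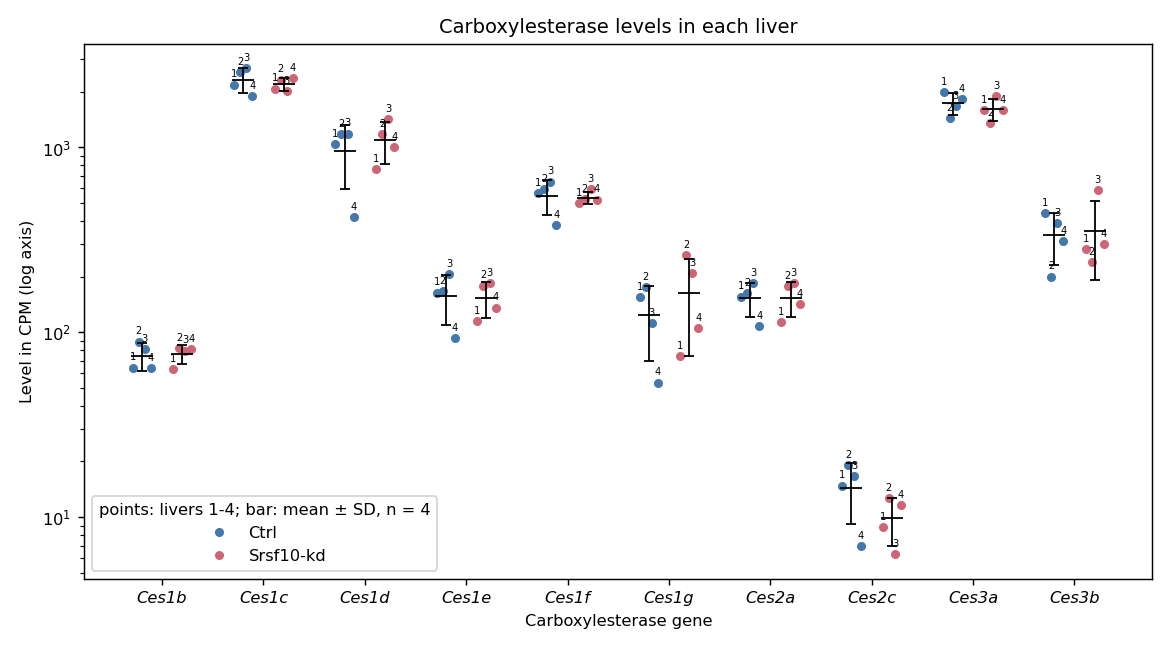
CPM on a log axis of each of the 10 genes in the 4 livers labelled *Ctrl* (blue) and the 4 labelled *Srsf10-kd* (red), with the liver's number above each point and the mean ± SD (n = 4) as bars. The groups overlap for every gene, and *Ctrl* 4 lies apart below the other *Ctrl* livers for *Ces1d*, at 421 CPM.

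**Figure D2:**
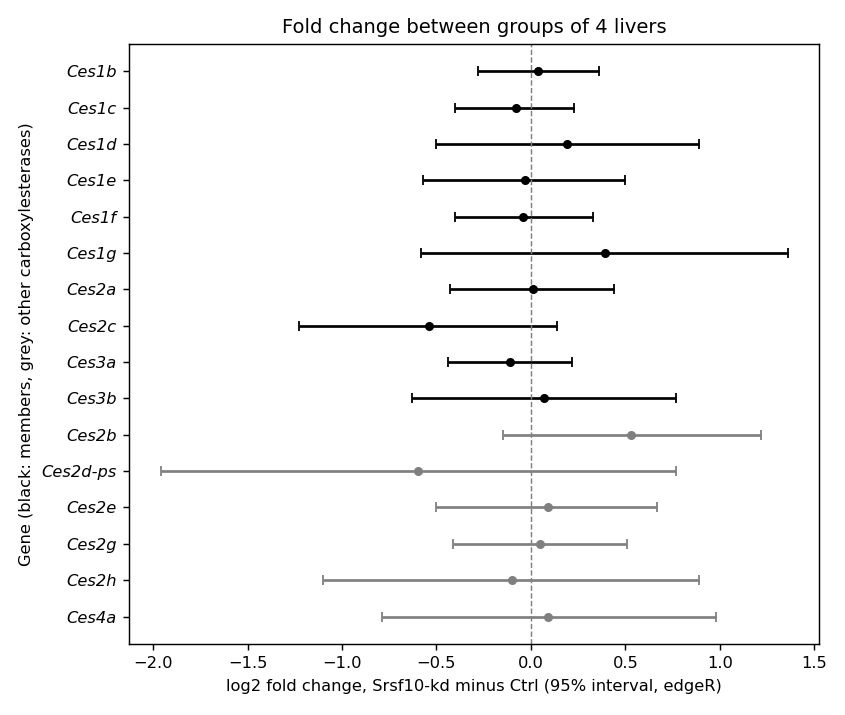
Log2 fold change of *Srsf10-kd* minus *Ctrl* with its 95% interval from edgeR, for the 10 genes (black) and 6 other carboxylesterase genes (grey). Every interval includes zero, the narrowest being those of *Ces1b* and *Ces1c* and the widest among the members that of *Ces1g*.

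Added up, the 10 transcripts took 6793, 6577, 7185 and 5166 CPM in *Ctrl* 1 to 4 and 5599, 6342, 7195 and 6253 CPM in *Srsf10-kd* 1 to 4. The sums of both groups overlapped, with means of 6430 ± 880 and 6347 ± 655 CPM (SD, n = 4 each) and a log2 difference of -0.01.

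The remaining carboxylesterase genes were mostly low or not detected. Of the 10, 9 had a count and 6 were tested, with 0 called by edgeR, DESeq2 or limma-voom and 0 at an unadjusted p under 0.05. *Ces2e*, at 84.6 CPM per kb, and *Ces2g*, at 10.8, lay within the range of the members, and *Ces4a*, *Ces2d-ps*, *Ces2h* and *Ces2b* were below 1 CPM per kb. *Ces2e* had 238, 279, 257 and 112 CPM in *Ctrl* and 196, 284, 266 and 196 in *Srsf10-kd*, with *Ctrl* 4 lowest, and a log2 fold change of 0.09 ± 0.26 SE (edgeR adjusted p = 0.852). *Ces2g* had a log2 fold change of 0.05 (adjusted p = 0.905), *Ces4a* of 0.09 (0.903), *Ces2h* of -0.10 (0.904), *Ces2b* of 0.53 (0.316) and the pseudogene *Ces2d-ps* of -0.60 (0.558). *Ces2d-ps*, which shared 65.3% of its 75-base stretches with other genes, had 14 to 34 counts in 7 livers and 0 in *Srsf10-kd* 3. *Ces1a* had 62 counts over the 8 livers, *Ces1h* 2 and *Ces2f* 1, too few to be tested, and *Ces5a* had 0.

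Variation between livers of the same label was larger than usual for several members. For *Ces1g*, the within-group SD of log2 CPM was 0.81, and 99.4% of the 1581 genes within 1 log2 unit of its level had a lower one. That share was 96.9% for *Ces2c* (SD 0.56), 96.8% for *Ces3b* (0.54), 91.6% for *Ces1d* (0.58) and 91.4% for *Ces1e* (0.42). At the other end it was 25.3% for *Ces1c* (0.18) and 43% for *Ces3a* (0.20). *Ces2a*, *Ces1f* and *Ces1b* lay between, at 79.4%, 62% and 57.8%.

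Values below a member's own mean were most frequent in 2 livers. In *Ctrl* 4, 9 of the 10 genes were below their own mean over the 8 livers, by a median of 0.49 below it on the log2 scale (-0.49), and 6 of the 10 had their lowest value there. *Ctrl* 4 was also the lowest liver for 21.1% of the 10967 genes averaging 1 or more on the log2 CPM scale, and *Srsf10-kd* 3, the lowest for 30.7% of them, was so for 1 member, *Ces2c*. In *Srsf10-kd* 1 all 10 were below their mean, with a median of -0.30, but only 1 of them had its lowest value there (4.54% of all genes). The median deviation over all genes was 0.02 in *Ctrl* 4 and -0.02 in *Srsf10-kd* 1. The share of all genes below their mean was not computed for these livers. *Ces3a* was the exception in *Ctrl* 4, at 0.14. The hepatocyte marker sum of these livers was 104733 and 105897 CPM, inside the range of the other 6. These 2 livers carry different labels.

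Members were therefore compared with each other over the 8 livers, as correlations of log2 CPM for 45 pairs, adjusted over the 45. Of these, 34 were positive and 11 negative, and 10 had an adjusted exact permutation p under 0.05 for Pearson's r and 7 for Spearman's rho. The same shares were not computed for pairs of other genes, so these counts cannot show a trait particular to the family. *Ces1e* and *Ces2a*, which lie in different clusters, had r = 0.98 (exact permutation p = 2.48e-05, adjusted 0.00112) and rho = 1 (exact permutation p = 4.96e-05, adjusted 0.00223). Without *Ctrl* 4 and *Srsf10-kd* 1, the livers farthest from the median of *Ces1e*, r was 0.96, and with the group means removed it was 0.98. *Ces1d* followed both, with r = 0.93 to *Ces1e* (exact permutation p = 0.000918, adjusted 0.0103, rho = 0.98) and r = 0.90 to *Ces2a* (exact permutation p = 0.000174, adjusted 0.00391, rho = 0.98). Without the same pair of livers these were 0.68 and 0.83. Those of *Ces1d* with *Ces1f* (r = 0.91) and with *Ces1g* (r = 0.86) rested more on these livers, as r was 0.44 and 0.57 without them. *Ces1c* and *Ces2c* had r = 0.89 (exact permutation p = 0.00461, adjusted 0.0285), and 0.86 without *Ctrl* 3 and *Ctrl* 4. *Ces1e* with *Ces1f* (r = 0.91), *Ces1f* with *Ces2a* (0.84) and *Ces1g* with *Ces2a* (0.85) also passed for r. For rho, *Ces1c* with *Ces2c* (adjusted exact permutation p = 0.0603), *Ces1d* with *Ces1g* (0.109) and *Ces1g* with *Ces2a* (0.187) did not pass. *Ces3a* and *Ces3b* had r = 0.85 (exact permutation p = 0.00871, adjusted 0.0392, rho = 0.90) and 0.86 without the 2 livers farthest from the median of *Ces3a*. *Ces3a* was negatively correlated with *Ces1b* (r = -0.57, exact permutation p = 0.142, adjusted 0.266) and *Ces1c* (r = -0.53, exact permutation p = 0.182, adjusted 0.321), which did not pass. The 75-base stretches that *Ces3a* and *Ces3b* share cannot be assigned to either gene by their letters alone, while *Ces1e* and *Ces2a* share none with each other. Whether reads from the shared stretches entered the counts of *Ces3a* and *Ces3b*, or their correlation, was not tested.

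The promoters of *Ces1e* and *Ces2a* are shown because these genes moved together across livers. Each runs from 250 bases before to 50 bases after the annotated start, in the direction of transcription (minus strand for *Ces1e*, plus strand for *Ces2a*), from RefSeq on GRCm38.p6, which gave a promoter for 7 of the 10 genes. Capitals mark AGGTCA, a half-site that nuclear receptors can bind, searched on both strands.
*Ces1e*, chr8:93229570-93229869: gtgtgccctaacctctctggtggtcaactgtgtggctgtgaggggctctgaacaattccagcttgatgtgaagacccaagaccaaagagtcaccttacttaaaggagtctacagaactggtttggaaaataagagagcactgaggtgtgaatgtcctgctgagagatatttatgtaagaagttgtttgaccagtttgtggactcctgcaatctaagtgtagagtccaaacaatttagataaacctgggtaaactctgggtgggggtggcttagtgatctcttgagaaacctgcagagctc
*Ces2a*, chr8:104733753-104734052: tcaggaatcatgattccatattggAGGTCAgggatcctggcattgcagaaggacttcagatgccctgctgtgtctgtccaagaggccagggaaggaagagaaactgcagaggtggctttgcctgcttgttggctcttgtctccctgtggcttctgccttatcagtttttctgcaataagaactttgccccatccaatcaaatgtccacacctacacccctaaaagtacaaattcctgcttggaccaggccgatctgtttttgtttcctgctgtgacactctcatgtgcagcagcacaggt
*Ces2a* holds 1 match and *Ces1e* none, and none of the other 5 members with a promoter has 1, beside 16.3% of 32851 promoters of this length. The letters CCAAT, on either strand, are in 6 of the 7, all but *Ces1e* (37.4% of all promoters), and TATAAA is in 2, *Ces1g* and *Ces3b* (13.6%). A match describes these letters and not a binding site.

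For each member the gene with the most similar pattern was sought among 10966 genes, as the smallest root mean square difference of log2 CPM, each centred on its mean over 8 livers. The nearest gene to *Ces1e* was *Ces2a*, at 0.10, beside a deviation of 0.36 of *Ces1e* itself. For *Ces2a* it was *Ghr*, the growth hormone receptor, at 0.10, with *Ces1e* ranked 2. *Ces1g* was nearest to *Akr1d1*, a steroid reductase of bile acid synthesis, at 0.17 against its own 0.72, and the nearest member was *Ces1d* at rank 44. *Ces1d* was nearest to *Zfp979* at 0.15, with *Ces1e* at rank 13. *Ces3b* was nearest to *Serpina3k*, a secreted serine protease inhibitor, at 0.20, with *Ces3a* at rank 96. For the other members the nearest genes were *B3galt6* for *Ces1b* (0.08), *Ttc8* for *Ces1c* (0.05), *Rom1* for *Ces1f* (0.05), *Spsb3* for *Ces3a* (0.08) and *Samd9l* for *Ces2c* (0.23), and the nearest member ranked 55 to 5820 for these 5.

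Genes that act on the same lipids were read from a list of 31, made up of enzymes, lipid droplet and lipoprotein proteins and, as the partner of *Ces1e*, *Gusb*. All 31 were tested. Of these, edgeR called 0 (0.071% of all genes tested) and 7 had an unadjusted p under 0.05 (21.8% of all genes), with 12 above and 19 below zero and a median log2 fold change of -0.07. *Apob*, the structural protein of very low density lipoprotein, had 7451, 9353, 7254 and 9107 CPM in *Ctrl* and 5231, 4749, 2659 and 4782 in *Srsf10-kd*, without overlap, as 14.3% of all genes. Its log2 fold change was -0.93 ± 0.22 SE and missed the threshold in edgeR (adjusted p = 0.115), while it was called lower by DESeq2 (adjusted p = 0.00293) and by limma-voom (0.00953), which called no other gene of the list and called 5.75% and 11.7% of all genes. With the trend on transcript length removed, *Apob* had -0.56 (edgeR adjusted p = 0.23). *Fitm2*, which acts in lipid droplet formation, had a log2 fold change of -0.32 (edgeR adjusted p = 0.161, groups not overlapping, and -0.21 with the length trend removed), *Plin5*, a lipid droplet coat protein, of -0.53 (0.174), *Lpl*, lipoprotein lipase, of 0.52 (0.18), and *Nceh1*, a cholesteryl ester hydrolase, of -0.52 (0.195, and -0.27 with limma-voom). *Cel*, the bile salt-dependent lipase of the pancreas, had a log2 fold change of 3.04 (edgeR adjusted p = 0.155) that came from 39.7 CPM in *Srsf10-kd* 2, as the other 7 livers had 1.16 to 2.76, and it was 0.59 without that liver.

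A list of 16 genes held regulators of hepatocyte enzymes and, as the targeted gene, *Srsf10*. Of these 16, edgeR called 1, lower in *Srsf10-kd* (0.071% of all genes tested), and 5 had an unadjusted p under 0.05 (21.8% of all genes). The called gene was *Ppara*, the fatty acid-sensing nuclear receptor, with 177, 208, 168 and 234 CPM in *Ctrl* 1 to 4 and 88.4, 84.6, 77.8 and 82.3 in *Srsf10-kd* 1 to 4. The groups did not overlap, and the log2 fold change was -1.24 ± 0.13 SE (edgeR adjusted p = 0.0166). The call was lost without *Ctrl* 2 (adjusted p = 0.106), *Srsf10-kd* 1 (0.0823), *Srsf10-kd* 2 (0.0536) or *Srsf10-kd* 4 (0.0969), with log2 fold changes of -1.31 to -1.15 over all left-out livers. In each of these fits without a call, edgeR called 0 of all genes tested. DESeq2 called *Ppara* lower with all 8 livers (adjusted p = 1.25e-15), where it called 5.75% of all genes. *Hnf4a*, the factor of hepatocyte identity, had a log2 fold change of -0.50 (edgeR adjusted p = 0.155, limma-voom 0.0274). *Nr1i2*, the pregnane X receptor, which induces carboxylesterases in response to drugs, had a log2 fold change of -0.24 (edgeR adjusted p = 0.199) with 112, 130, 121 and 113 CPM in *Ctrl* and 98.9, 99.1, 99.8 and 106 in *Srsf10-kd*, without overlap. *Nr1i3*, the related androstane receptor, had -0.19 (edgeR adjusted p = 0.533).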

How the data were processed

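Per the labels and the methods of the study, the authors made directional poly(A) libraries from whole livers, sequenced 75 bases from both ends, and aligned reads to GRCm38 with STAR 2.7.7a. They deposited raw read counts per Ensembl gene for 8 livers, without normalization. The annotation release and strand column used are not given in the sources used here. No 2 libraries were duplicates (chi-square of at least 51 per degree of freedom in each of 28 pairs).

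Counts were analysed in R 4.3.3 with edgeR 4.0.16: TMM, filterByExpr (15491 genes), a quasi-likelihood fit on condition, two-sided, Benjamini-Hochberg adjusted p under 0.05 over all genes. DESeq2 1.42.0 and limma-voom with sample weights (limma 3.58.1) were alternatives, beside the other scalings and filters, a replicate block, left-out livers and removal of the length trend. Log2 CPM used a prior count of 2. Fits were tested on simulated counts. Nothing in the labels ties livers to cages or days, so p-values measure the spread between these 8 livers only. Positions, lengths and coding sequences are from GENCODE M21 (45143 of 45706 identifiers matched), promoters from RefSeq.

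The members were taken by name and not by their levels, but the members, gene lists and tests were chosen with earlier results of these data known. Genes named are the 10 members, every other carboxylesterase with a count, list genes that passed the threshold or else those with the smallest unadjusted p (6 of the lipid list, 3 of the regulators), *Ppara*, *Nr1i2*, *Nr1i3*, *Hnf4a* and *Srsf10*, and the gene nearest in pattern to each member. *Gusb*, *Ces5a*, *Nr3c1* and *Rxra* were named beside that rule. Replicate numbers were taken from the titles, and no column was left unmatched.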

Additional observations from a re-analysis of the deposited data

Results flagged for a closer look

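In 20 groups of 4 livers (10 genes, 2 labels), the gap of the lowest or highest liver to its neighbour was divided by the group's range of log2 CPM, and it exceeded Dixon's 95% critical value in 2 groups, where about 1 in 20 is met by chance, or 1 of these 20. For *Ces1d* in *Ctrl*, the ratio was 0.878, with *Ctrl* 4 at 421 CPM and the other 3 livers at 1047 to 1188. For *Ces1b* in *Srsf10-kd*, it was 0.874, with *Srsf10-kd* 1 at 63.0 CPM and the other 3 at 79.7 to 82.5.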

How the results depend on the processing

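No alternative called any of the 10 carboxylesterases or the 6 other tested ones: over 16 alternative fits the members gave 160 values, of which 138 kept their direction and 22 reversed it, and the lowest adjusted p was 0.186. Reversed values lay between -0.30 and 0.12 for the members and reached 0.16 for *Ces2h* among the other carboxylesterases. With limma-voom the log2 fold change was -0.03 for *Ces1b* and *Ces1d*, -0.25 for *Ces1g*, -0.14 for *Ces2a*, -0.01 for *Ces3b*, -0.10 for *Ces2e* and *Ces4a* and -0.12 for *Ces2g*. With the length trend removed it was -0.07 for *Ces1b* and -0.10 for *Ces2a*, and, without reversal, -0.20 for *Ces1c* and -0.21 for *Ces3a*. *Ces2a* had -0.01 with library size only and -0.00 with no filter. Leaving out 1 liver in turn gave -0.03 to 0.13 for *Ces1b*, -0.06 to 0.33 for *Ces1d*, -0.22 to 0.12 for *Ces1e*, -0.18 to 0.06 for *Ces1f*, 0.06 to 0.63 for *Ces1g*, -0.13 to 0.13 for *Ces2a*, -0.30 to 0.23 for *Ces3b*, -0.13 to 0.22 for *Ces2e*, -0.17 to 0.15 for *Ces2g*, -0.41 to 0.16 for *Ces2h* and -0.29 to 0.48 for *Ces4a*. The cause was not tested.

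Over all genes, 11 calls became 890 with DESeq2, 1814 with limma-voom, 46 with no filter, 6 with the length trend removed, and 0 to 544 with 1 liver left out (544 without *Ctrl* 3, 64 without *Srsf10-kd* 3, 4 without *Ctrl* 1, 5 without *Ctrl* 4, and 0 without each other liver, with 2154 to 3656 genes at an unadjusted p under 0.05). The lipid list had 1 call with DESeq2 and 1 with limma-voom, where 5.75% and 11.7% of all genes were called. Of the 16 genes of the regulator list, limma-voom called 4, all lower, beside the same 11.7%. They were *Ppara* (limma-voom adjusted p = 0.00164), *Hnf4a* (0.0274), *Nr3c1* (log2 fold change -0.32, 0.0385) and *Rxra* (-0.45, 0.0454). With a liver left out, the regulators had 0 to 1 call. Livers that share a replicate number had correlations of -0.176, 0.213, 0.265 and 0.217, and 5 of 8 livers correlated best with their own number. As 1 of the 4 was negative and no label ties the numbers to a litter or day, the livers were not treated as pairs, and pairing remains unsettled. With the replicate number as a block, 59 genes were called over the table, 0 members, 0 other carboxylesterases, 0 of the lipid list and 1 regulator.

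Shared stretches between copies limit *Ces2c*, *Ces3a*, *Ces3b* and *Ces2a*, and 4 livers per label limit a fold change of *Ces1g* to the interval 0.671-fold to 2.57-fold.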
